A study of Mus musculus with 9 samples.

Results

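Cirbp, Rbm3 and Srsf5 encode cold-inducible RNA-binding proteins, and their transcripts were sought in the anterior cingulate cortex of mice given ketamine or kept awake. The set held 3 genes. A gene counted as measured where the array annotation gave a probe set to that gene alone, and the brightest such probe set on average was used. On this rule 2 of the 3 genes, Cirbp and Srsf5, were measured, out of 22180 genes in all. Rbm3 had 1 probe set (17540027), which the annotation assigns to Rbm3-ps and Rbm3 together, so no level is given for Rbm3.

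The 9 arrays fell into 3 groups of 3 C57BL/6J mice, an inbred laboratory strain, and the titles call the replicates biological. Control mice (saline) had an intraperitoneal injection of saline at ZT5, where ZT0 is lights on. Ketamine mice (KT in the labels), given an NMDA receptor blocker with fast antidepressant action, were injected with 3 mg/kg at ZT5. A slowly rotating bar kept the sleep-deprived mice (SD) awake between ZT0 and ZT12, and the labels name no injection for them. All mice were killed at ZT13, and the labels give no age, sex or body temperature. Injection and wakefulness therefore cannot be told apart in comparisons with the sleep-deprived group, nor can the wakefulness and the hour that followed it.

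Cirbp and Rbm3 are small relatives with an RNA-recognition motif followed by a glycine-rich tail. Their transcripts accumulate when cells are cooled mildly and decline with warming, and the proteins act on the stability, translation and polyadenylation of other transcripts, among them that of the clock gene Clock. Srsf5 is an SR protein, a splicing factor with a tail rich in arginine and serine, and has been described as cold-inducible as well. In rodent cortex the Cirbp transcript is known to follow brain temperature, which is higher in wakefulness than in sleep.

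The promoter of Cirbp is shown because it holds the letters of a mild cold response element described for this gene, and that of Srsf5 is shown as its counterpart in the set. Both are the 250 bases before an annotated start site in RefSeq (GRCm38.p6), on the plus strand, at chr10:80167589-80167838 for Cirbp and chr12:80945249-80945498 for Srsf5. Capitals mark the cold element TCCCCGCC in Cirbp and the GC box GGGCGG, on either strand, in Srsf5.
Cirbp: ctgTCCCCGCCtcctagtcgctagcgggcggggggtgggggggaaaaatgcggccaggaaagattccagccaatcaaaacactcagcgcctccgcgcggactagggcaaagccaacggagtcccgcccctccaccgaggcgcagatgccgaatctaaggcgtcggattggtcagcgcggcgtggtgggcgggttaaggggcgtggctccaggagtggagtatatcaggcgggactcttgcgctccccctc
Srsf5: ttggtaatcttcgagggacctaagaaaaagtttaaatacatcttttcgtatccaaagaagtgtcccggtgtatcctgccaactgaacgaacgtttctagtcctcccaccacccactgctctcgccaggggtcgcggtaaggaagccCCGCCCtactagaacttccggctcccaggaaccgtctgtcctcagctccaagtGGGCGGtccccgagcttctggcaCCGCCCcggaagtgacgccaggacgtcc

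The cold element began 247 bases before the Cirbp start site, and its letters occurred on either strand in 4.64% of 32851 promoters of the same length. No match lay in the Srsf5 window or before the other listed Cirbp start site (chr10:80167921-80168170). GC boxes, the sites of Sp1-type factors, numbered 3 in each printed window, and 32.7% of promoters held at least 1. The letters of both motifs are mostly G and C. These bases made up 65.6% of the printed Cirbp window and 56.8% of the Srsf5 window, against a median of 52.4% over the promoters. The shares of 4.64% and 32.7% were not matched for base content. None of the GC box matches in the Cirbp window overlapped the cold element. The heat shock element GAANNTTC, the E-box CACGTG and the cyclic AMP response element TGACGTCA had 0 matches in these windows, against 6.69%, 6.02% and 1.55% of all promoters. These matches describe letters only.

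Cirbp (probe set 17235227; chromosome 10, 80165990 to 80172786, GRCm38.p6) had lower values in sleep-deprived mice on average, but not beyond the spread between mice. Its intensity was 308, 199 and 262 in saline arrays 1 to 3, and 317, 230.4 and 229 in ketamine arrays 1 to 3. In sleep-deprived arrays 1 to 3 it was 154, 243 and 185. The lowest pair of all 9 values were sleep-deprived arrays 1 and 3, while sleep-deprived array 2 lay above saline array 2 and above ketamine arrays 2 and 3, so every pair of groups overlapped. Group means were 256 ± 55.0 after saline, 259 ± 50.5 after ketamine and 194 ± 45.1 after sleep deprivation (SD, n = 3 each).

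**Figure D1:**
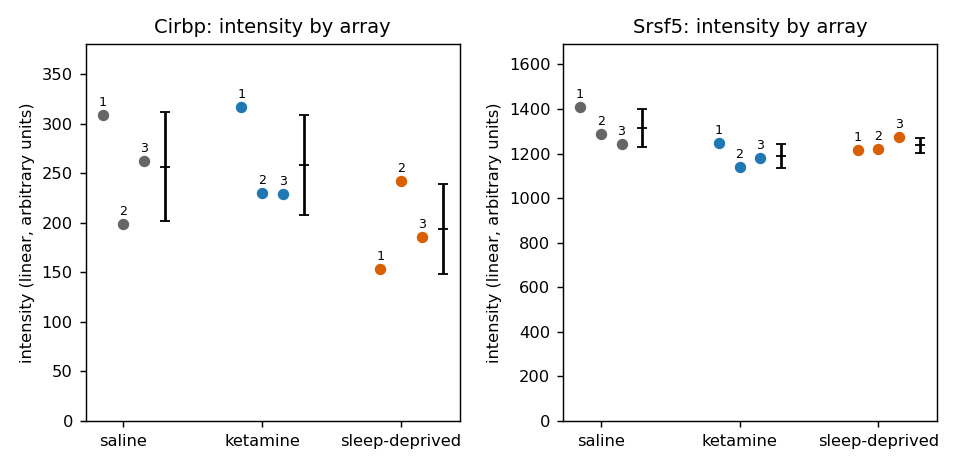
Intensity (linear, from 0) of Cirbp and Srsf5 in each of the 9 arrays, with numbers giving the replicate and black bars the group mean ± SD (n = 3). Cirbp ranged from 154 to 317 with overlapping groups, and Srsf5 from 1138 to 1409.8.

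Differences were computed on the scale of log2(intensity + 16) with limma over all genes and are given ± SE. Cirbp differed by -0.38 ± 0.18 between sleep-deprived and saline mice, a ratio of 0.77, with a 95% interval from -0.76 to 5.0e-05. All 3 sleep-deprived arrays lay below the saline mean. limma gave an adjusted p of 0.9997 over the 22180 genes (unadjusted 0.05003), and the two-sided exact permutation test of 3 arrays against 3, whose smallest possible p is 0.10, gave 0.20. A difference at least as large, in either direction, was found for 0.81% of all genes, and an unadjusted p at least as small for 3.53%. The size of the difference was thus uncommon among genes, but its p was not.

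Between ketamine and sleep deprivation Cirbp was higher on the ketamine side by 0.40 ± 0.18 (95% interval 0.017 to 0.77), a ratio of 1.32, and all 3 ketamine arrays lay above the sleep-deprived mean. The adjusted p in limma was 0.518 (unadjusted 0.0416), and the exact permutation p was 0.30. Unadjusted p under 0.05 was reached by 9.48% of genes in this comparison, by 3.52% between sleep deprivation and saline and by 4.57% between ketamine and saline. Against saline, ketamine left Cirbp at 0.017 ± 0.18 (95% interval -0.36 to 0.40, adjusted p = 0.987 in limma, exact permutation p = 0.90). That interval still holds ratios from 0.78 to 1.32. The sign turned to -0.14 without saline array 2 and to -0.13 without ketamine array 1.

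Single mice moved the Cirbp values considerably. Without saline array 2 the difference of sleep deprivation from saline was -0.54, and without sleep-deprived array 2 it was also -0.54. Without saline array 1 it was -0.24, and without sleep-deprived array 1 it was -0.24. The difference of ketamine from sleep deprivation was 0.56 without sleep-deprived array 2, 0.25 without sleep-deprived array 1 and 0.25 without ketamine array 1. In none of these 9 removals did either difference pass an adjusted p of 0.05 in limma, and the smallest were 0.634 and 0.302.

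Srsf5 (probe set 17276893; chromosome 12, 80945495 to 80950507) varied far less from mouse to mouse. Its intensity was 1409.8, 1289 and 1245 in saline arrays 1 to 3, and 1248, 1138 and 1180.4 in ketamine arrays 1 to 3. Sleep-deprived arrays 1 to 3 gave 1216, 1221 and 1275. Saline array 1 was the highest and ketamine array 2 the lowest, and ketamine array 1 lay just above saline array 3, so the groups overlapped here too. The means were 1315 ± 85.4 after saline, 1189 ± 55.7 after ketamine and 1237 ± 32.7 after sleep deprivation (SD, n = 3 each).

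Srsf5 stood at -0.14 ± 0.090 in ketamine against saline, a ratio of 0.91, with a 95% interval from -0.34 to 0.050 (adjusted p = 0.87 in limma, exact permutation p = 0.20). All 3 ketamine arrays lay below the saline mean. Sleep deprivation against saline gave -0.085 ± 0.090 (95% interval -0.28 to 0.11, adjusted p = 0.9997, exact permutation p = 0.20), and again all 3 arrays lay below the saline mean. Ketamine against sleep deprivation gave -0.057 ± 0.090 (95% interval -0.25 to 0.14, adjusted p = 0.822, exact permutation p = 0.30). That last value was -0.027 without ketamine array 2, -0.036 without sleep-deprived array 3, -0.092 without ketamine array 1, -0.0064 after quantile normalization and -0.10 with array weights. Over the 3 comparisons these intervals reach from -0.34 to 0.14, narrower than those of Cirbp. Without saline array 1 the values against saline were -0.092 for ketamine and -0.034 for sleep deprivation.

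**Figure D2:**
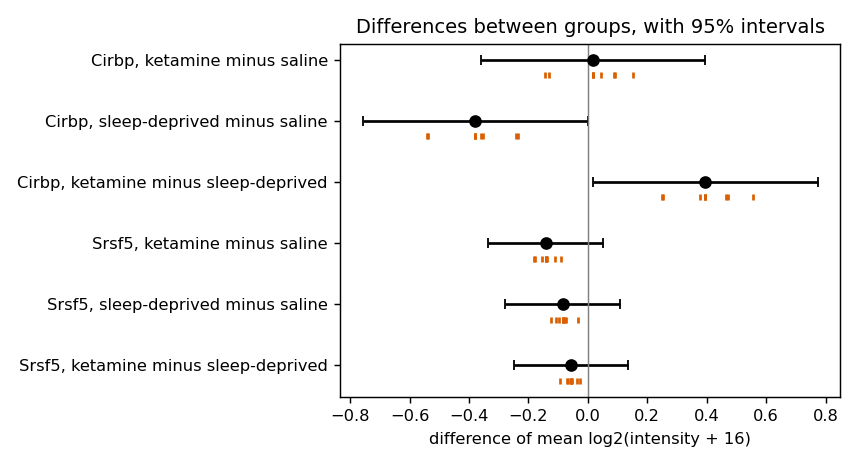
Differences of mean log2(intensity + 16) between groups for Cirbp and Srsf5 (points) with 95% intervals from limma, and the same difference with each of the 9 arrays left out in turn (orange ticks). The intervals of Cirbp are equally wide in the 3 comparisons, and only that of ketamine minus sleep-deprived, 0.017 to 0.77, lies wholly on 1 side of 0. limma draws the spread behind these intervals toward that of all genes, which narrows those of Cirbp.

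Neither gene passed the test in any comparison, and neither did any other gene. limma called 0 of 22180 genes in each comparison (0.0%), so 0 of 2 measured genes of the set is the background share. Groups that did not overlap were found for 14.4% of genes between ketamine and saline, 7.11% between sleep deprivation and saline and 10.1% between ketamine and sleep deprivation, and for neither Cirbp nor Srsf5. The comparisons share arrays and are not independent of each other.

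The genes differed in how much mice of 1 group varied. The within-group SD of Cirbp, pooled over the 3 groups, was 0.29 on the log2 scale, and 99.3% of the 11090 genes at or above the median level had a smaller one. Within saline mice the highest Cirbp value was 1.55 times the lowest, within ketamine mice 1.39 times and within sleep-deprived mice 1.58 times. For Srsf5 the pooled SD was 0.069, and 9.81% of those genes had a smaller one. The median over those genes was 0.12. The wide spread of Cirbp was thus present in every group, saline included.

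Across the 9 arrays Cirbp and Srsf5 did not track each other closely. Pearson's r on the log2 scale was 0.319 (exact permutation p = 0.408, adjusted over 3 pairs 0.408) and Spearman's rho was 0.233 (exact permutation p = 0.552, adjusted 0.552). Without the 2 arrays farthest from the median of Cirbp, sleep-deprived array 1 and ketamine array 1, r was 0.362. Taken as deviations from group means r was 0.525, and groups of 3 are too small for a value within each.

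The genes most like Cirbp over the 9 arrays, by Pearson's r among genes at or above the median level, were Tmem186 (0.959), Tmem218 (0.945), C130074G19Rik (0.941), Ccs (0.938) and Tbc1d7 (0.928). Ccs encodes the copper chaperone of superoxide dismutase. Those most like Srsf5 were Pdpn (0.923), Naca (0.872), Mettl9 (0.872), Rufy3 (0.864) and Pigp (0.847). Pdpn encodes podoplanin and Naca a subunit of the nascent polypeptide-associated complex. After group means were removed, r was between 0.918 and 0.993 for the 5 genes of Cirbp and between 0.669 and 0.875 for those of Srsf5. The same arrays served to pick the genes, so these values are no separate support for a likeness within groups. The named genes have the highest r among 11089 genes searched and are given as a description.

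Rbm3os, a long noncoding RNA whose gene overlaps that of Rbm3 by 454 bases on chromosome X, has a probe set of its own (17533088). It is outside the set and was added for its position, and its level does not stand for that of Rbm3. Its intensity was 50.5, 50.02 and 46.95 in saline arrays 1 to 3, 68.2, 42.5 and 44.5 in ketamine arrays, and 49.5, 57.5 and 50.3 in sleep-deprived arrays. All of these lay below the array medians of 97.7 to 106.2, so the probe set was dim. Whether its signal exceeds background was not tested. Ketamine array 1 was the highest and ketamine arrays 2 and 3 were the lowest pair. It differed from saline by 0.036 ± 0.13 after ketamine and by 0.069 ± 0.13 after sleep deprivation (adjusted p = 0.96 and 0.9997 in limma).

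Genes of the same machinery are given from lists of related genes, each read beside the median over all genes, which was -0.015 for ketamine against saline, -0.0088 for sleep deprivation against saline and -0.012 for ketamine against sleep deprivation. Of all genes 54.6%, 53.4% and 53.0% had a lower mean in the first-named group, in that order. In every list 0 genes passed an adjusted p of 0.05 in limma, as over all genes. The other SR protein genes, splicing factors related to Srsf5, had 9 of 10 measured. Against saline 8 of 9 had a lower mean after ketamine (median -0.095) and 7 of 9 a higher mean after sleep deprivation (median 0.054). After quantile normalization of the arrays the ketamine count was 6 of 9 (median -0.037). Between the treatments 7 of 9 were lower on the ketamine side (median -0.19, and -0.10 after quantile normalization), 2 of 9 at an unadjusted p under 0.05, against 9.48% of all genes. These were Srsf1 at -0.26 ± 0.11 and Srsf6 at -0.24 ± 0.10 (adjusted p = 0.507 and 0.502 in limma). After quantile normalization they stood at -0.19 and -0.15, and with the mean of each gene's probe sets at -0.21 and -0.18, and neither kept an unadjusted p under 0.05 in these settings. The mean of Srsf5 itself was below saline after either treatment.

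SR protein kinases phosphorylate the tails of SR proteins, and those of the Clk family respond to temperature. Of 7 listed, 6 were measured. After ketamine 5 of 6 had a lower mean than after saline (median -0.10), and after sleep deprivation 3 of 6 did (median -0.0081). After quantile normalization these medians were -0.031, with 4 of 6 lower, and 0.0016. Clk1 stood at -0.16 ± 0.11 in sleep deprivation against saline, a value that was -0.057 without saline array 2, -0.067 without sleep-deprived array 1 and -0.25 without saline array 3. Clk2 stood at -0.16 ± 0.089 in ketamine against sleep deprivation, and at -0.076 after quantile normalization. In limma 0 of 6 reached an unadjusted p under 0.05 in any comparison.

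Relatives of Cirbp and Rbm3 that bind RNA through similar motifs, chiefly hnRNP proteins, which package and process nascent transcripts, had 23 of 25 genes measured. After ketamine 21 of 23 had a lower mean than after saline (median -0.11), and 20 of 23 after quantile normalization (median -0.049). Hnrnpa3 stood at -0.27 ± 0.098 and Taf15, of the FET family, at -0.25 ± 0.10, with all ketamine arrays below all saline arrays for both, as groups were apart for 14.4% of all genes (adjusted p = 0.87 for each in limma). Without ketamine array 3 Taf15 stood at -0.15. After sleep deprivation 12 of 23 had a lower mean (median -0.0088, which turned to 0.0045 when arrays were centred on their medians). Between the treatments 19 of 23 were lower on the ketamine side (median -0.093, and 15 of 23 with -0.019 after quantile normalization), among them Tardbp, which encodes TDP-43, at -0.29 ± 0.12, and at -0.18 without ketamine array 3. Cirbp, at 0.017 after ketamine and -0.38 after sleep deprivation, was placed differently from these medians, and this difference was not tested.

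Described regulators, partners and targets of the cold-inducible proteins had 9 of 10 genes measured, with medians of -0.046 after ketamine and -0.0043 after sleep deprivation against saline. After quantile normalization the former was -0.014, and with centred arrays the latter turned to 0.0090. Clock, whose transcript Cirbp binds, stood at -0.14 ± 0.091 in ketamine against sleep deprivation. Ntrk2, the BDNF receptor gene, stood at -0.15 ± 0.090 and Sp1, whose protein binds GC-rich elements, at -0.14 ± 0.092 in the same comparison. For all 3 the ketamine arrays lay below every sleep-deprived array, where groups were apart for 10.1% of all genes, and the adjusted p in limma was 0.605, 0.58 and 0.615. Without ketamine array 3 Clock stood at -0.088 and Sp1 at -0.089, and Sp1 stood at -0.078 without sleep-deprived array 2 and at -0.059 with array weights.

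Heat-inducible chaperone genes respond to warming and are the counterpart of the cold-inducible set. Of 14 measured, 10 had a higher mean after sleep deprivation than after saline (median 0.049) and 12 a lower mean after ketamine (median -0.11, and -0.071 after quantile normalization). Between the treatments 13 of 14 were lower on the ketamine side (median -0.18), and 5 of 14 had an unadjusted p under 0.05, against 53.0% and 9.48% of all genes. After quantile normalization 12 of 14 were lower there (median -0.14). The list was chosen with earlier results of these data known, so its counts are a description. Hspa1b, the inducible HSP70 gene, had intensities of 134, 130.02 and 99.3 in saline arrays 1 to 3. It had 171, 168 and 161 in sleep-deprived arrays, and 121, 88.1 and 113 in ketamine arrays. All 3 sleep-deprived values exceeded all others, and saline and ketamine overlapped. Sleep-deprived arrays were apart from saline for 7.11% of all genes and from ketamine for 10.1%, and Hspa1b was first in this list by unadjusted p. The difference of sleep deprivation from saline was 0.42 ± 0.12 for Hspa1b and 0.35 ± 0.12 for Hsph1, a related chaperone gene (adjusted p = 0.9997 for both in limma). Hspa1b has a near-identical neighbour, Hspa1a, and probes may not separate them. The probe set assigned to Hspa1a gave a smaller difference of sleep deprivation from saline, 0.12 ± 0.10. Between ketamine and sleep deprivation Hspa1a stood at -0.21 ± 0.10 and Hspa1b at -0.58 ± 0.12.

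Array by array, 9 arrays were too few to settle whether Hspa1b and Cirbp mirror each other. Pearson's r was -0.442 over 9 arrays (exact permutation p = 0.235, adjusted over 3 pairs 0.408), rho was -0.4 (exact permutation p = 0.291, adjusted 0.552), and r was -0.218 without sleep-deprived array 1 and ketamine array 1. As deviations from group means r was 0.198. For Srsf5 and Hspa1b r was 0.345 and rho 0.3 (exact permutation p = 0.375 and 0.437, adjusted 0.408 and 0.552), and r was 0.0532 without saline array 1 and ketamine array 2. As deviations from group means r for Srsf5 and Hspa1b was 0.731, and this value was not tested. Sleep-deprived array 2 combined a high Hspa1b value with the highest Cirbp value of its group. The pair with Hspa1b was chosen after its values were seen.

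**Figure D3:**
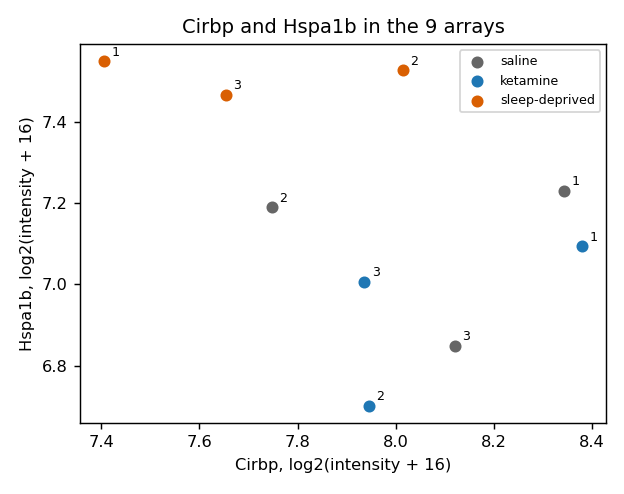
Cirbp (x axis) against Hspa1b (y axis), both as log2(intensity + 16), in the 9 arrays, coloured by group and numbered by replicate. Sleep-deprived arrays form the top of the plot, with Hspa1b intensities from 161 to 171, but spread over Cirbp intensities from 154 to 243.

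Clock and clock output genes, to which Cirbp is linked through Clock, had 15 of 16 measured, with 11 of 15 lower after sleep deprivation and 13 of 15 lower after ketamine than after saline (medians -0.058 and -0.076). After quantile normalization 10 of 15 were lower after ketamine (median -0.014). Dbp, a clock output transcription factor gene, was at -0.37 ± 0.10 in sleep deprivation against saline and at 0.39 ± 0.10 in ketamine against sleep deprivation, beside -0.38 and 0.40 for Cirbp. Dbp had intensities of 746 to 971 in sleep-deprived arrays and 1028 to 1159 in saline arrays, so its groups did not overlap while those of Cirbp did. These groups were apart for 7.11% of all genes, and the adjusted p of Dbp between them was 0.9997 in limma. Ciart, a repressor of the clock loop and first in this list by unadjusted p, stood at -0.57 ± 0.11 after sleep deprivation (adjusted p = 0.527 in limma, and 0.0485 without sleep-deprived array 2, where it was -0.70). After ketamine Ciart stood at -0.23 ± 0.11 against saline (adjusted p = 0.87 in limma, and 0.0247 with array weights, where it was -0.29). Array weights called 1439 of 22180 genes in that comparison. They rested the ketamine group mostly on ketamine array 2, at a weight of 7.92 against 0.65 and 0.47 for ketamine arrays 1 and 3. Bhlhe41, another repressor gene, stood at -0.33 ± 0.093 after sleep deprivation and -0.21 ± 0.093 after ketamine, and at -0.14 after ketamine with quantile normalization. Ciart and Bhlhe41 thus had lower means than saline after either treatment, while Cirbp stood at 0.017 and Dbp at 0.016 after ketamine.

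**Figure D4:**
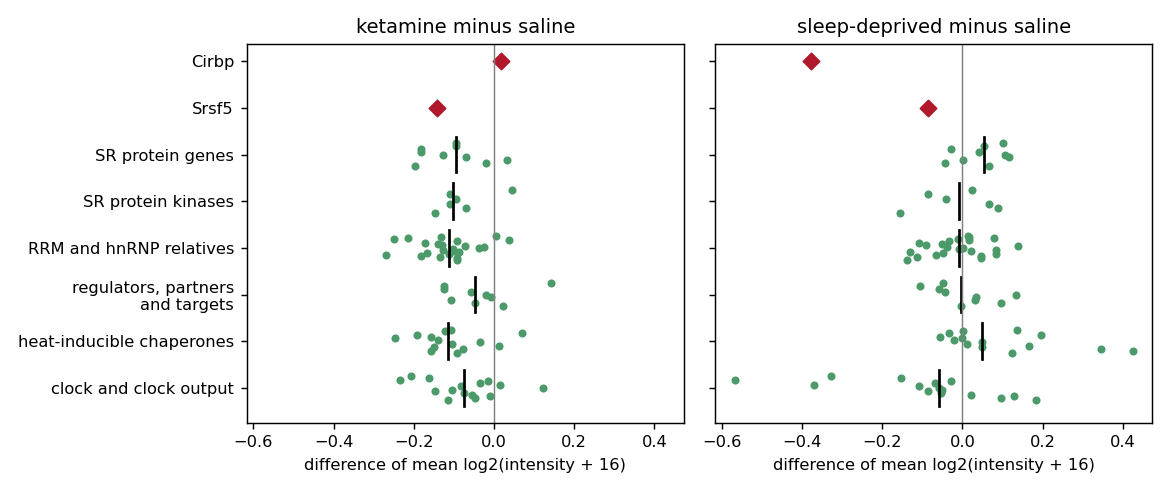
Difference from saline of mean log2(intensity + 16) for Cirbp and Srsf5 (red) and for each measured gene of 6 related lists (green, with the list median as a black line), after ketamine (left) and sleep deprivation (right). Cirbp lies at 0.017 and -0.38, and the heat-inducible chaperones have medians of -0.11 and 0.049.

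Array medians lay between 97.7 and 106.2. The tissue label was checked on neuronal markers, of which 7 of 7 had a mean above the array median, with summed intensities of 24877 to 25953 in saline, 25024 to 26540.4 in ketamine and 24387 to 25238 in sleep-deprived arrays. Markers of other cells moved with the groups in part. The 5 of 5 measured endothelial markers summed to 1239 to 1423 in sleep-deprived arrays against 1087 to 1179.5 in saline and 965 to 1173 in ketamine arrays. Sleep-deprived arrays were apart from saline for 7.11% of all genes and from ketamine for 10.1%. By gene the endothelial differences of sleep deprivation from saline ran from 0.034 for Tek to 0.41 for Vwf (adjusted p = 0.9997 for both in limma). The choroid plexus markers (5 of 5) summed to 499 to 9329 in saline, 556 to 877 in ketamine and 412 to 859.9 in sleep-deprived arrays. The highest sum came with a Ttr intensity of 8428 in saline array 2, the saline array with the lowest Cirbp value. Ttr was 1624 in saline array 1, which had the highest Cirbp value of that group, and 109.5 in saline array 3. Astrocyte, oligodendrocyte, microglia and meningeal fibroblast markers (5 of 5, 5 of 6, 6 of 6 and 4 of 4 measured) had overlapping sums in saline and sleep-deprived arrays, and no marker was at 0. Microglia sums were 1957 to 2075 in ketamine and 2101 to 2253 in sleep-deprived arrays and did not overlap, as groups were apart for 10.1% of all genes. By gene these markers went both ways in that comparison (median -0.042), with C1qb at -0.36 and P2ry12 at 0.21. Oligodendrocyte markers had medians of -0.20 in sleep deprivation against saline and 0.24 in ketamine against sleep deprivation, the same signs as Cirbp. The part of these cells in the Cirbp and Srsf5 values was not tested, and in bulk tissue fewer cells of a type and less RNA per cell cannot be told apart.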

How the data were processed

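The deposited values are linear intensity for 41345 probe sets on 9 arrays. The authors made them with Affymetrix Expression Console 1.1.1 and PLIER 2.0, per the submitters' processing notes; how arrays were background-corrected and normalized is not stated in any source used here. Intensities were used as deposited and turned here into log2(intensity + 16), which damps the change of dim genes. Of the probe sets 23521 had 1 gene in the platform annotation, 1814 had several and 16010 had none, and 23328 of the first were matched to RefSeq names (GRCm38.p6) by gene identifier. The brightest probe set stood for a gene.

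limma 3.58.1 in R 4.3.3 fitted all 9 arrays together (6 residual degrees of freedom), with Benjamini-Hochberg adjustment over 22180 genes at 0.05. The fit was tested on simulated data. limma draws each gene's spread between arrays toward that of all genes, and its SE, interval and p rest on the result. This narrowed the intervals of Cirbp, whose own spread was wide, and widened those of Srsf5. The number of arrays limits the precision. Single genes were also compared by a two-sided exact permutation test. The labels number the arrays group by group, so array order and group cannot be told apart. The genes of the set and the lists were chosen with earlier results of these data known. Named were the 5 genes most like each measured member by r and up to 4 genes per list by unadjusted p, over the 3 comparisons. Alternatives covered offsets, normalization, centring, filters, probe set choice, variance models, array weights, arrays in the fit, leaving out each array and a replicate block.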

Additional observations from a re-analysis of the deposited data

How the results depend on the processing

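Cirbp and Srsf5 passed an adjusted p of 0.05 in limma under none of the alternatives run, and the smallest was 0.074, for Srsf5 in ketamine against saline with array weights. Directions held except for Cirbp in ketamine against saline, which was -0.13 with array weights and ranged from -0.14 to 0.15 as each array was left out. The cause was not tested. Other settings gave Cirbp -0.51 to -0.31 in sleep deprivation against saline and 0.33 to 0.46 in ketamine against sleep deprivation, and leaving out each array gave -0.54 to -0.24 and 0.25 to 0.56. The same removals left Srsf5 at -0.18 to -0.092 after ketamine and -0.12 to -0.034 after sleep deprivation, each against saline, and at -0.092 to -0.027 between the treatments. The count of genes called between ketamine and saline was 1439 with array weights (7.92 for ketamine array 2), Hnrnpa3 among them at -0.26 (adjusted p = 0.0323). Between sleep deprivation and saline it was 1 after centring on medians, 3 with limma-trend, 1 with robust eBayes, 1 at a threshold of 0.1 and 0 to 4 as each array was left out. Between ketamine and sleep deprivation it was 14 with an offset of 64, 5 without the dimmest genes, 15 with limma-trend, 42 with array weights and 0 to 214 as each array was left out, the highest without sleep-deprived array 3. At unadjusted p under 0.05 the counts were 1013, 781 and 2103 in the order of these comparisons. The labels do not say that replicate numbers pair the arrays. Between groups, r of deviations from group means was -0.201 to 0.444 for same-numbered arrays and -0.514 to 0.536 for the others. With 3 arrays a group these values cannot decide whether the numbers pair mice. With the replicate block Cirbp stood at -0.38 in sleep deprivation against saline (adjusted p = 0.9997 in limma), and 0 genes were called in each comparison.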
